A study of Mus musculus with 17 samples.

Results

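The genes described here are 10 members of the Wnt pathway, taken by name from 35971 genes summed from the deposited transcripts. Their choice was made with earlier results of these data known. They are the ligands Wnt4, Wnt7b, Wnt9b, Wnt5a and Wnt11, the secreted antagonists Dkk2, Dkk3 and Sfrp1, and Lef1 and Axin2, which are commonly read as outputs of the pathway. All 10 passed the filter on low counts and were among the 17011 genes tested. They were measured in whole kidneys of 17 mice in 5 groups, by RNA-seq. Every mouse carried a lox-stop-lox PRCC-TFE3 allele (lsl-PRCC-TFE3 KI) at the Rosa26 locus, and PRCC-TFE3 is a fusion gene found in a form of renal cell carcinoma. The Cre(-) group had no KSP-Cre and held 4 mice, of which replicates 1 and 2 also carried HIF1a f/f and replicates 3 and 4 carried no flox allele of Hif1a or Hif2a. The KI group had KSP-Cre and held 3 mice. The Hif1α KO group (4 mice, HIF1a f/f), the Hif2α KO group (3 mice, HIF2a f/f) and the DKO group (3 mice, both flox alleles) carried PRCC-TFE3 KI and KSP-Cre as well. KSP-Cre is driven by the Cadherin 16 promoter, which is active in kidney epithelium, so the fusion gene and the Hif deletions are limited to cells where that promoter has been active, while the RNA came from all cells of the kidney. The labels give neither age nor sex. Kidneys of this model were examined at 8 months, both for histology and for gene expression with and without Cre, and the age of each sequenced mouse is not given in the sources used here. The labels name each library as a mouse, and their library numbers run largely group by group, so an effect of that order cannot be told apart from genotype.

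Wnt proteins are secreted, lipid-modified ligands that bind Frizzled receptors and co-receptors. In the canonical branch, receptor binding keeps beta-catenin from being degraded, and beta-catenin then acts with TCF/LEF factors on target genes such as Axin2. Ligands such as Wnt5a and Wnt11 are best known for branches that work without beta-catenin, including planar cell polarity. Sfrp proteins bind Wnt ligands outside the cell, and Dkk proteins bind the LRP5/6 co-receptors, although Dkk3 differs from the other Dkk proteins in this. In the developing kidney Wnt9b of the ureteric bud induces nephrons, Wnt4 acts in the nephron precursors as they become epithelium, Wnt11 is made at the ureteric bud tip, and Wnt7b of the collecting duct is needed for the medulla.

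The 17 libraries held 16504419 to 24668827 expected counts over all deposited transcripts. Values by library are counts brought to one common library total (CPM, with library sizes scaled by TMM, which matches libraries on the bulk of their genes), and 3 counts correspond to 0.117 to 0.206 CPM. Every one of the 10 genes was above that level in every library, with a lowest count of 14 for Wnt11 and 15 for Lef1. Gpnmb, a known TFE3 target, was at 1.58 ± 0.52 CPM (SD, n = 4) in Cre(-) and 14280 ± 1312 CPM in KI (n = 3). Its mean was lower in the knockout groups, at 5609 ± 2039 CPM in Hif1α KO (n = 4), 8373 ± 3236 in Hif2α KO and 4112 ± 2001 in DKO (n = 3 each). Whether this difference bears on the values of the 10 genes was not tested. Hif1a was at 215 ± 26 CPM in KI (n = 3) and 186 ± 16 in Hif1α KO (n = 4), and Epas1, which encodes Hif2α, was at 181 ± 9.5 CPM in KI and 144 ± 6.7 in Hif2α KO (n = 3 each). These are totals over the whole gene in the whole kidney and do not check the floxed exons. KI replicate 2 stood apart in adipocyte markers, whose 5 genes summed to 758 CPM there against 53.6 and 82.4 in the other two KI libraries, and it also had the highest sum of B cell markers. Without it the count of members called was 7 for KI against Cre(-), 1 for Hif1α KO, 1 for Hif2α KO and 3 for DKO, each against KI. Much of the transcriptome separated the groups: 31.6% of the genes tested were called higher and 29.3% lower in KI than in Cre(-), where called means that edgeR's quasi-likelihood test gave a p under 0.05 once adjusted over all 17011 genes by Benjamini-Hochberg. TMM assumes that most genes do not differ. On the TPM scale, which is relative to transcript length and to the sum over all transcripts, the median gene was 0.38 higher in KI than in Cre(-) on log2(TPM + 1), against 0.03 in the edgeR fit, and limma then called 8843 genes higher and 2458 lower in place of 5381 and 4981. The other groups against Cre(-) showed the same kind of shift, of 0.35 to 0.45. Changes are given on the TMM scale, and a reversal on the other scale is stated where it occurs.

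Of the 10 genes, 4 rose and 3 fell in KI kidneys relative to Cre(-) kidneys. Wnt4, Wnt5a, Dkk3 and Axin2 rose, and Wnt9b, Dkk2 and Sfrp1 fell, while Wnt7b, Wnt11 and Lef1 did not pass the test. The ligands moved in both directions, and so did the antagonists. Set against the 31.6% and 29.3% of all genes called, these counts lie near the background. The groups did not overlap for these 7 genes, as for 56.6% of all genes. The share of all genes without overlap was 56.1%, 59.7% and 59.3% for Hif1α KO, Hif2α KO and DKO against Cre(-). Against KI it was 19.3%, 20.2% and 33.7% in the same order. It was 15.1% between Hif1α KO and Hif2α KO, 16% between DKO and Hif1α KO, and 10.2% between DKO and Hif2α KO.

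**Figure D1:**
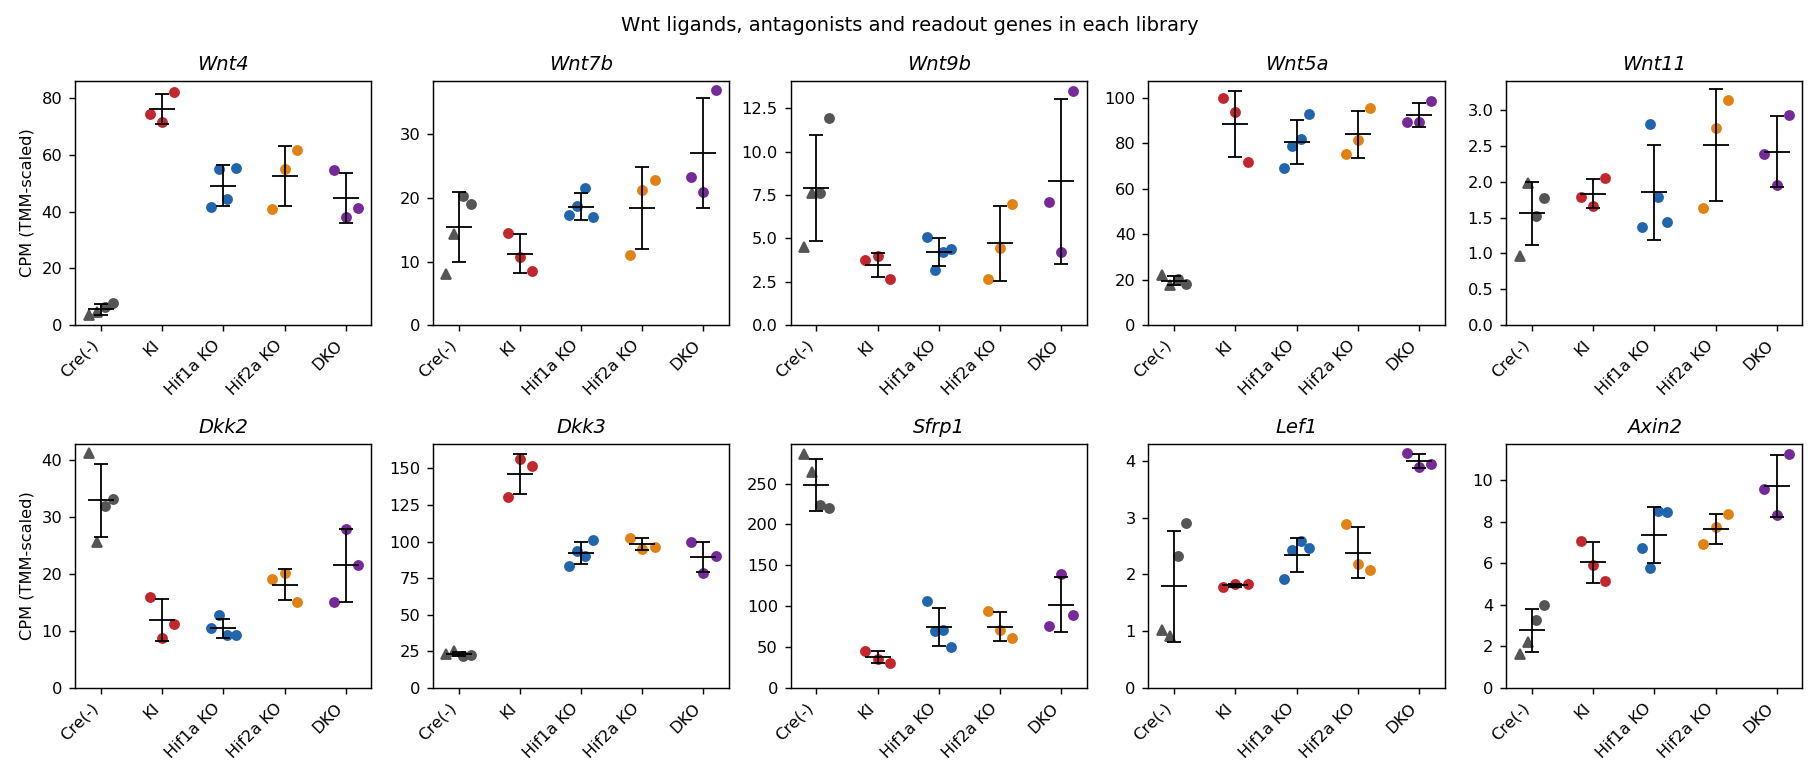
CPM on TMM-scaled library sizes (y axis, from 0, a different range in each panel) of the 10 genes in each library, by group; bars are the mean ± SD, and triangles mark the 2 Cre(-) mice with HIF1a f/f. Wnt4, Wnt5a and Dkk3 of all 13 Cre(+) libraries lie above the 4 Cre(-) libraries, Sfrp1 lies below them, and Lef1 of the 3 DKO libraries lies above every other library.

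Wnt4 (ENSMUSG00000036856.4, GRCm38 chromosome 4, 137277489 to 137299726, plus strand) had the largest difference of the 10. Its level was 3.63, 4.55, 6.22 and 7.70 CPM in Cre(-) replicates 1 to 4, and 74.6, 71.7 and 82.2 CPM in the 3 KI libraries. The groups did not overlap, and the means of 5.53 ± 1.8 CPM (SD, n = 4) and 76.2 ± 5.4 CPM (n = 3) differed by 13.8-fold, with a log2 fold change of 3.78 ± 0.21 (SE) and an adjusted p of 2.4e-09. It ranked 571 of 17011 genes by the size of its change. Wnt4 then lay between those groups in each knockout group. The Hif1α KO libraries had 41.6, 55.1, 44.4 and 55.6 CPM, the Hif2α KO libraries 40.9, 55.1 and 61.6 CPM, and the DKO libraries 54.7, 38.3 and 41.4 CPM. All 10 knockout libraries were below the lowest KI library and above the highest Cre(-) library. Relative to KI the decrease passed the test in DKO alone, at a log2 fold change of -0.77 ± 0.20 (adjusted p = 0.0252), and the value was -0.63 ± 0.19 in Hif1α KO (adjusted p = 0.0633) and -0.54 ± 0.20 in Hif2α KO (adjusted p = 0.17). DESeq2 called the Hif1α KO decrease as well, and the DKO decrease lost its call without KI replicate 3, DKO replicate 2 or DKO replicate 3 (highest adjusted p = 0.115) and on log2(TPM + 0.1) (adjusted p = 0.0815). Wnt4 of Hif1α KO differed from that of Hif2α KO by -0.09 ± 0.19 (adjusted p = 0.863).

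Wnt5a (ENSMUSG00000021994.15, chromosome 14, 28504750 to 28527448, plus strand) also rose in KI kidneys and kept that level in each knockout group. It was at 21.9, 17.6, 20.5 and 18.1 CPM in Cre(-) and at 99.9, 93.7 and 72.0 CPM in KI, and every KI library was above every Cre(-) library. The difference was 4.54-fold (log2 fold change 2.18 ± 0.13, adjusted p = 2.87e-09). The means were 80.7 ± 9.7 CPM in Hif1α KO (n = 4), 84.1 ± 10.3 in Hif2α KO (n = 3) and 92.5 ± 5.3 in DKO (n = 3), against 88.5 ± 14.6 in KI (n = 3). All 3 knockout groups overlapped with KI, with log2 fold changes of -0.13 ± 0.12, -0.07 ± 0.13 and 0.06 ± 0.13, the lowest adjusted p of which was 0.57. Each knockout group remained above Cre(-), by 2.05, 2.11 and 2.25 on the log2 scale. The transcript with the largest share of Wnt5a, a protein-coding one, followed the gene, with a mean of 2.99 TPM in Cre(-) and 20.8, 17.8, 20.1 and 23.1 TPM in KI, Hif1α KO, Hif2α KO and DKO.

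Wnt7b (ENSMUSG00000022382.15, chromosome 15, 85535437 to 85582473, minus strand) did not pass the test between KI and Cre(-). Its Cre(-) libraries were spread widely, at 8.02, 14.4, 20.3 and 19.1 CPM, and the KI libraries at 14.5, 10.8 and 8.50 CPM lay within that spread (log2 fold change -0.46 ± 0.31, adjusted p = 0.223). The sign depended on the control mice and on the scale: the value was 0.01 against the 2 Cre(-) mice with HIF1a f/f, 0.05 on log2(TPM + 1), and -0.80 (adjusted p = 0.0413) against the 2 Cre(-) mice without flox alleles. In DKO kidneys Wnt7b was at 23.3, 20.9 and 37.0 CPM, above all 3 KI libraries, and rose 2.40-fold relative to KI (log2 fold change 1.27 ± 0.33, adjusted p = 0.0227). That call was lost without KI replicate 2, KI replicate 3 or DKO replicate 3 (highest adjusted p = 0.108). The Hif1α KO libraries, at 17.0 to 21.5 CPM, were all above the KI libraries too, but neither this difference (0.73 ± 0.31, adjusted p = 0.184) nor that of Hif2α KO (0.71 ± 0.33, adjusted p = 0.256) passed.

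Wnt9b (ENSMUSG00000018486.2, chromosome 11, 103727364 to 103749821, minus strand) fell in KI kidneys. Its Cre(-) libraries had 4.53, 7.60, 7.61 and 11.9 CPM and its KI libraries 3.74, 3.99 and 2.68 CPM, with no overlap but a gap of under 1 CPM between the nearest libraries. The log2 fold change was -1.19 ± 0.40 (adjusted p = 0.0185). The call was lost without Cre(-) replicate 4 or KI replicate 3, against the Cre(-) mice with HIF1a f/f alone and on both TPM scales, with adjusted p up to 0.196, and with the replicate number as a block (adjusted p = 0.0502). The DKO libraries had 7.11, 4.22 and 13.5 CPM, all above KI, at 1.26 ± 0.42 on the log2 scale, which did not pass in edgeR (adjusted p = 0.0624) and passed in DESeq2 (adjusted p = 0.026) and without DKO replicate 2 (1.57, adjusted p = 0.0461). DKO replicate 3 alone held the highest Wnt9b and the highest Wnt7b of all 17 libraries, and without it the Wnt9b value was 0.71. Across the 13 Cre(+) libraries Wnt9b followed Wnt7b with a Pearson r of 0.83, as a description over libraries that share genotype groups.

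Wnt11 (ENSMUSG00000015957.12, chromosome 7, 98835112 to 98855195, plus strand) had the lowest mean CPM of the 5 ligands in every group, and its 17 libraries lay between 0.960 and 3.14 CPM. Group means ran from 1.56 ± 0.44 CPM in Cre(-) to 2.51 ± 0.78 in Hif2α KO, the groups overlapped in CPM in every comparison, and no comparison passed in edgeR. Relative to Cre(-) the value was 0.68 ± 0.30 in Hif2α KO (adjusted p = 0.0646) and 0.63 ± 0.31 in DKO (adjusted p = 0.0899). Hif2α KO passed without Cre(-) replicate 2 (0.83, adjusted p = 0.0427) or Hif2α KO replicate 1 (0.91, adjusted p = 0.0209), and in limma on log2(TPM + 1) both Hif2α KO (0.72, adjusted p = 0.0114) and DKO (0.85, adjusted p = 0.00401) passed. In TPM the highest Cre(-) library, at 1.80, lay below the lowest of KI (1.86), Hif2α KO (1.92) and DKO (2.38). Its counts of 14 to 63 per library limit what could be detected. A pseudogene on the opposite strand, Gm8398, overlaps Wnt11, and antisense genes, not analysed here, overlap Wnt7b, Wnt5a, Lef1 and Axin2. Whether the counting used strand is not given in the sources used here, so reads of such a pair cannot be assigned to one of them.

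Dkk3 (ENSMUSG00000030772.6, chromosome 7, 112116017 to 112159057, minus strand) had even values within groups. Its Cre(-) libraries had 22.8, 25.1, 21.5 and 22.7 CPM and its KI libraries 131, 156 and 152 CPM, a 6.35-fold rise (log2 fold change 2.67 ± 0.10, adjusted p = 2.88e-11). It was the member with the smallest adjusted p in that comparison. Dkk3 was then lower in each knockout group, at 83.0, 93.8, 90.4 and 101 CPM in Hif1α KO, 103, 95.1 and 96.6 CPM in Hif2α KO, and 99.6, 78.6 and 90.2 CPM in DKO. All 10 of these libraries lay below the lowest KI library and more than 3 times above the highest Cre(-) library. The decrease relative to KI passed in all 3 comparisons: -0.67 ± 0.09 in Hif1α KO (adjusted p = 0.00271), -0.58 ± 0.10 in Hif2α KO (adjusted p = 0.0159) and -0.71 ± 0.10 in DKO (adjusted p = 0.00152). These comparisons share the same 3 KI libraries, and the Hif2α KO call was lost without KI replicate 3 or Hif2α KO replicate 2 (highest adjusted p = 0.0882) as well as when only the 2 groups were fitted (adjusted p = 0.145) and on log2(TPM + 0.1) (adjusted p = 0.0597). Among themselves the knockout groups differed by at most 0.13 on the log2 scale, and none of these differences passed.

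Sfrp1 (ENSMUSG00000031548.7, chromosome 8, 23411502 to 23449632, plus strand) moved opposite to Dkk3. It was the member with the highest CPM in Cre(-), at 286, 265, 223 and 220 CPM, and fell to 45.3, 35.6 and 30.7 CPM in KI, a 6.68-fold decrease with no overlap (log2 fold change -2.74 ± 0.27, adjusted p = 4.74e-07). In the knockout groups it was higher than in KI but stayed below Cre(-). The Hif1α KO libraries had 106, 69.9, 70.4 and 49.7 CPM, the Hif2α KO libraries 94.4, 70.2 and 60.5 CPM, and the DKO libraries 76.0, 139 and 89.6 CPM. All 10 were above the highest KI library and below the lowest Cre(-) library. Relative to KI, Sfrp1 rose in DKO by 1.45 ± 0.27 (adjusted p = 0.00494) and in Hif1α KO by 0.99 ± 0.25 (adjusted p = 0.0345). In Hif2α KO the value was almost the same, 1.01 ± 0.27, but did not pass in edgeR (adjusted p = 0.0645). It passed in DESeq2 (adjusted p = 0.00654) and without KI replicate 1 (1.18, adjusted p = 0.0409), and Sfrp1 of Hif1α KO differed from that of Hif2α KO by -0.02 ± 0.25 (adjusted p = 0.981). The Hif1α KO call was lost without KI replicate 2, KI replicate 3, Hif1α KO replicate 1 or Hif1α KO replicate 3 (highest adjusted p = 0.115) and with only the 2 groups fitted, while the DKO call held without any 1 library. Over the 13 Cre(+) libraries Sfrp1 ran against Wnt4 (Pearson r = -0.93) and Dkk3 (r = -0.90), as a description over libraries that share genotype groups.

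Dkk2 (ENSMUSG00000028031.6, chromosome 3, 132085292 to 132180304, plus strand) was 41.3, 25.6, 32.0 and 33.2 CPM in Cre(-) and fell to 16.0, 8.67 and 11.2 CPM in KI (log2 fold change -1.47 ± 0.24, adjusted p = 6.3e-05). It was the only antagonist of the 3 without overlap between the Hif1α KO and Hif2α KO libraries, as for 15.1% of all genes. The former had 10.5, 12.7, 9.26 and 9.33 CPM, within the range of KI, and the latter 19.2, 20.2 and 15.1 CPM. That difference of -0.80 ± 0.23 did not pass in edgeR (adjusted p = 0.115) and passed in DESeq2 (adjusted p = 0.0292). The DKO libraries had 15.0, 27.9 and 21.6 CPM. DKO was higher than KI by 0.85 ± 0.24 (adjusted p = 0.0347), with overlapping libraries, and this call was lost without KI replicate 2 or 3 or DKO replicate 2 or 3 (highest adjusted p = 0.168) and with the replicate number as a block (adjusted p = 0.0569). DKO was above all Hif1α KO libraries by 1.04 ± 0.23 (adjusted p = 0.0604).

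Axin2 (ENSMUSG00000000142.15, chromosome 11, 108920349 to 108950783, plus strand) encodes a scaffold of the complex that degrades beta-catenin and is a widely used target of the canonical branch. Its Cre(-) libraries had 1.65, 2.20, 3.24 and 3.98 CPM and its KI libraries 7.07, 5.92 and 5.14 CPM, a rise of 2.18-fold (log2 fold change 1.13 ± 0.24, adjusted p = 0.00086). The means were 7.38 ± 1.4 CPM in Hif1α KO, 7.67 ± 0.72 in Hif2α KO and 9.73 ± 1.5 in DKO, and all 13 Cre(+) libraries were above all 4 Cre(-) libraries. The DKO libraries, at 9.60, 8.32 and 11.3 CPM, were all above KI, with a log2 fold change of 0.69 ± 0.25 that did not pass in edgeR (adjusted p = 0.0815) and passed in DESeq2 and in limma on log2(TPM + 1), where the lowest adjusted p was 0.0287.

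Lef1 (ENSMUSG00000027985.14, chromosome 3, 131110471 to 131224356, plus strand), a transcription factor that works with beta-catenin, was low in all groups. The Cre(-) libraries had 1.03, 0.910, 2.32 and 2.90 CPM and the KI libraries 1.78, 1.83 and 1.83 CPM, so KI lay between the Cre(-) mice with and without HIF1a f/f. The log2 fold change of 0.02 ± 0.32 (adjusted p = 0.956) became 0.91 against the former pair (adjusted p = 0.00374) and -0.52 against the latter. In DKO Lef1 was 4.14, 3.90 and 3.95 CPM, from 74 to 85 counts, and these 3 libraries were above the other 14. Relative to KI it rose 2.20-fold (log2 fold change 1.14 ± 0.33, adjusted p = 0.0371), and the call was lost without any 1 of the 6 libraries compared (adjusted p = 0.0693 to 0.101) although the value stayed between 1.11 and 1.16. The Hif1α KO and Hif2α KO values relative to KI were 0.38 ± 0.32 and 0.40 ± 0.34, and neither passed.

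**Figure D2:**
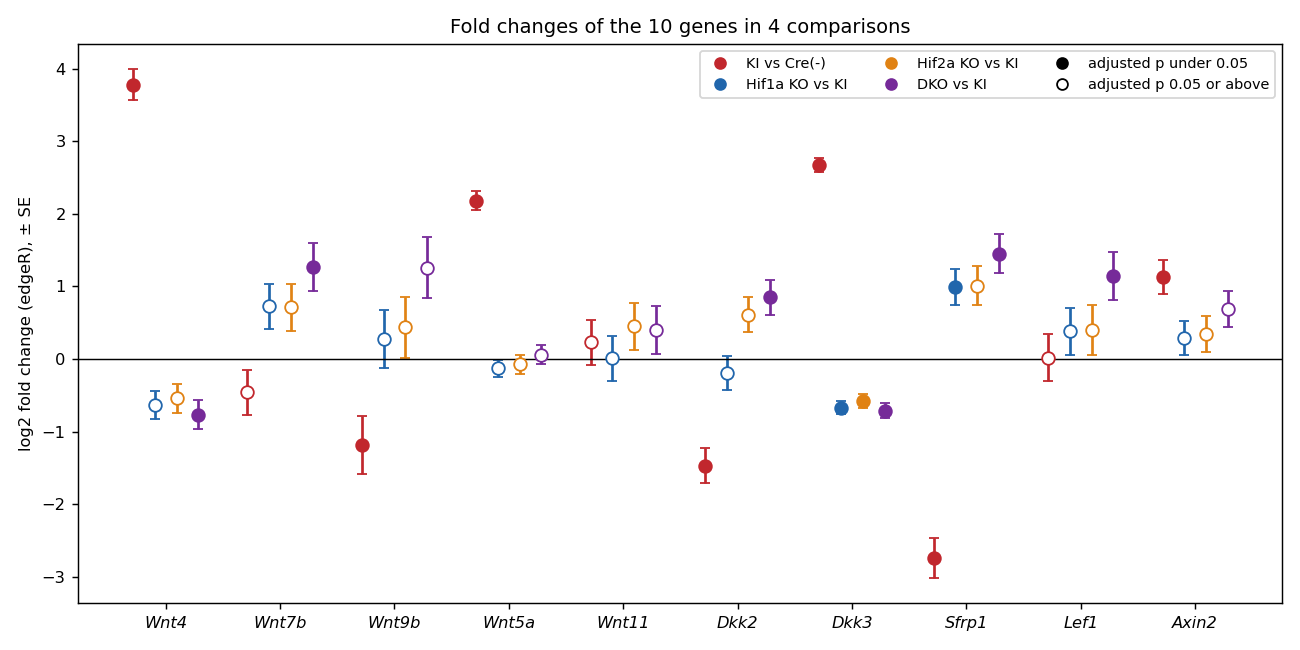
Log2 fold changes (y axis, edgeR, ± SE) of the 10 genes (x axis) in 4 comparisons; filled points have an adjusted p under 0.05. The changes of KI relative to Cre(-) run from -2.74 for Sfrp1 to 3.78 for Wnt4, and those of the knockout groups relative to KI lie between -0.77 and 1.45.

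By count, the Hif1α KO comparison with KI called 1 member higher (Sfrp1) and 1 lower (Dkk3), where 2.57% of all genes were called higher and 2.86% lower. The Hif2α KO comparison called Dkk3 lower and none higher, against 0.647% and 0.741% of all genes. The DKO comparison called 4 higher (Wnt7b, Dkk2, Sfrp1 and Lef1) and 2 lower (Wnt4 and Dkk3), against 6.53% and 6.19% of all genes. The median log2 fold change of the 10 was 0.15, 0.42 and 0.77 in the 3 comparisons, with medians over all genes between -0.01 and 0. The members were chosen with earlier results of these data known. These counts and medians therefore cannot show whether Wnt genes as a set stand out from all genes. The same 3 KI libraries serve in all 3, and only Sfrp1 and Dkk3 of the DKO calls held without KI replicate 3 or without DKO replicate 3, which leaves 2 calls of 6. On log2(TPM + 1) the calls over all genes leaned upward, with 69.9% of them higher in DKO and 70.6% in Hif2α KO against 51.3% and 53.4% in edgeR.

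The knockout groups did not differ from one another in any of the 10 genes by edgeR. Between Hif1α KO and Hif2α KO, 0.429% of all genes were called in either direction, between DKO and Hif1α KO 0.406%, and between DKO and Hif2α KO 0.00588%. At an unadjusted p under 0.05 the members numbered 1, 3 and 1 of 10, where 14.9%, 13% and 5.58% of all genes were at that level, and DESeq2 called Dkk2 in each of the first 2 comparisons and no member in the third. The members with unadjusted p under 0.05 between DKO and Hif1α KO were Wnt9b, Dkk2 and Lef1, each higher in DKO. On log2(TPM + 1), 67.6% of the calls over all genes between DKO and Hif1α KO were higher in DKO, against 21.7% in edgeR, and 58.6% of those between the single knockouts were higher in Hif1α KO, against 76.7%.

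Relative to Cre(-), 7 members were called in Hif1α KO, 6 in Hif2α KO and 8 in DKO, where 61.9%, 61.9% and 58.3% of all genes were called. Wnt4, Wnt5a, Dkk3 and Axin2 were higher and Dkk2 and Sfrp1 lower in each of these 3 groups, as they were in KI. Wnt9b was called lower in Hif1α KO only (-0.91 ± 0.36, adjusted p = 0.0399), and this call was lost without Cre(-) replicate 2, 3 or 4 or Hif1α KO replicate 2, 3 or 4 (highest adjusted p = 0.149), against the Cre(-) mice with HIF1a f/f alone (-0.52, adjusted p = 0.317) and on log2(TPM + 1) (-0.27, adjusted p = 0.353). By edgeR with all libraries, DKO added Wnt7b (0.81 ± 0.30, adjusted p = 0.0305) and Lef1 (1.16 ± 0.31, adjusted p = 0.00452), both higher. The Wnt7b call was lost without Cre(-) replicate 1, Cre(-) replicate 2 or DKO replicate 3 (highest adjusted p = 0.189) and against the Cre(-) mice without flox alleles (0.47, adjusted p = 0.221), and on log2(TPM + 1) Wnt7b passed in Hif1α KO as well (0.67, adjusted p = 0.0405). The Lef1 call in DKO held without any 1 library. Lef1 also passed in Hif1α KO and Hif2α KO on log2(TPM + 1) (0.43 and 0.47), against the Cre(-) mice with HIF1a f/f alone (1.28 and 1.32) and without Cre(-) replicate 4 (0.73 and 0.76), with a highest adjusted p of 0.0363, so these calls do not set DKO apart from the single knockouts. The Dkk2 decrease in DKO (-0.62 ± 0.23, adjusted p = 0.0284) was lost without Cre(-) replicate 1, DKO replicate 1 or DKO replicate 3 (highest adjusted p = 0.152). On log2(TPM + 1) Dkk2 was at -0.08 in DKO and -0.30 in Hif2α KO, and neither was called. The Cre(-) mice were of 2 kinds. Of the 10 genes, 5 (Wnt4, Wnt7b, Wnt9b, Lef1 and Axin2) were lower and 2 (Dkk3 and Sfrp1) higher in both Cre(-) mice with HIF1a f/f than in both without, an order that 20.2% and 23.7% of all genes tested showed. With 2 mice on each side, no test was made, and neither the flox allele nor any other difference between these pairs of mice was tested as its source.

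The order of the genes by level was read on the TPM scale, which is per transcript length. In Cre(-) Sfrp1 led at 63.4 ± 9.1 TPM (n = 4), above Dkk2 at 9.89 ± 1.5 TPM with no overlap, and the ranges of neighbours from Wnt5a (5.80 ± 0.91 TPM) down to Lef1 (0.838 ± 0.39 TPM) overlapped at each step. In KI the order was led by Dkk3 at 67.4 ± 6.3 TPM, followed by Wnt5a at 39.2 ± 11.9 and Wnt4 at 28.0 ± 0.64 TPM, which overlapped, and then by Sfrp1 at 13.2 ± 3.2 TPM (n = 3 each). Sfrp1 went from rank 1 to rank 4 and Wnt4 from rank 7 to rank 3. In Hif1α KO, Hif2α KO and DKO the first 3 places were held by Dkk3, Wnt5a and Sfrp1, with overlapping neighbours, and Wnt4 held rank 4. Lef1 or Wnt9b had the lowest mean in each group. Wnt5a is counted here over 6 transcripts, and 17.7% of its TPM came from a transcript of 337 bases that is not protein-coding, so that its TPM is raised against genes with 1 transcript such as Wnt4, Wnt9b, Dkk2, Dkk3 and Sfrp1.

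**Figure D3:**
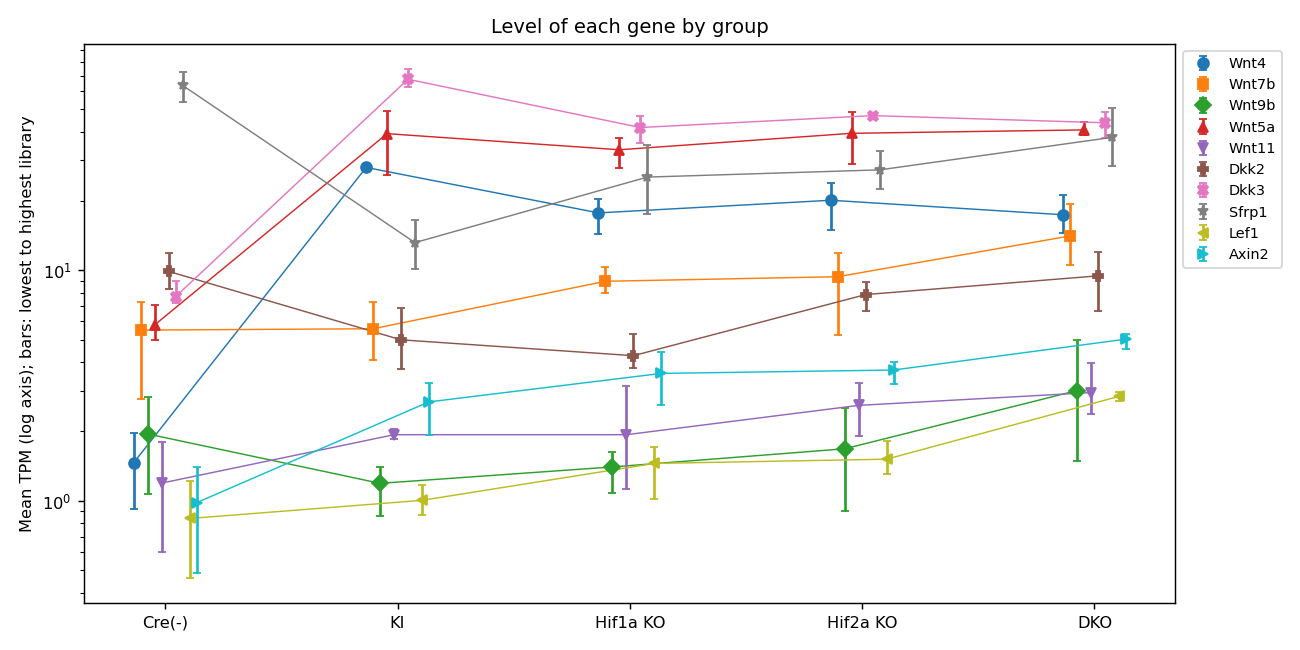
Mean TPM of the 10 genes (y axis, log scale) in the 5 groups (x axis); bars span the lowest to the highest library, and lines only connect the same gene. Sfrp1 is highest in Cre(-), and Dkk3 is highest in the 4 Cre(+) groups, with Wnt5a next.

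RefSeq promoter windows, from 250 bases before to 50 after each annotated start in GRCm38.p6, were matched by symbol for 6 of the 10 genes: Wnt4, Wnt9b, Wnt11, Dkk2, Lef1 and Axin2. They were searched on both strands for CACGTG, an E-box that TFE3 and related factors bind, for ACGTG, the core of the HIF response element that lies within CACGTG, and for CTTTGAT, a TCF/LEF motif. Of 32851 windows, 7.15% held CACGTG, 19.6% held ACGTG and 3.73% held CTTTGAT on either strand. The windows of Wnt4, Wnt9b, Dkk2 and Axin2 held none of the 3, which says only that these letters are not in these windows. Wnt11, which passed against Cre(-) on the TPM scale in Hif2α KO and DKO but in no comparison in edgeR with all libraries, had ACGTG and CTTTGAT close together upstream of the first of its 2 starts. Lef1, which rose in DKO, had CACGTG upstream of the last of its 4 starts, inside the gene, and none in the other 3 windows. With several windows searched, single hits can occur at the shares given above, and no link of a motif to expression was tested. The 150 bases before the start are shown for these 2 windows and, for comparison, for Axin2, which was higher in all 4 Cre(+) groups than in Cre(-), and Dkk2, which was lower in all 4. Capitals mark the motifs, and all 4 are on the plus strand: Wnt11 is chr7:98834962-98835111, Lef1 is chr3:131156144-131156293, Axin2 is chr11:108920199-108920348 and Dkk2 is chr3:132085142-132085291.
Wnt11: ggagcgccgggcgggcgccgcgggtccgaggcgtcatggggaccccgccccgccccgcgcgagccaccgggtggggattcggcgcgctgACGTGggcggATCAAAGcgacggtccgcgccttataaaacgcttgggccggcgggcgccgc
Lef1: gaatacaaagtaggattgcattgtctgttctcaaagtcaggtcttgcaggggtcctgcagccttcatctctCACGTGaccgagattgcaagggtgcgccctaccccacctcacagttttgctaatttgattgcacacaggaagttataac
Axin2: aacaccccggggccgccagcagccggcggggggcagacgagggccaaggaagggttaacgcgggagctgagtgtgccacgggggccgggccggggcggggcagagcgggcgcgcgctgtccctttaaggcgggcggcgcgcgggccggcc
Dkk2: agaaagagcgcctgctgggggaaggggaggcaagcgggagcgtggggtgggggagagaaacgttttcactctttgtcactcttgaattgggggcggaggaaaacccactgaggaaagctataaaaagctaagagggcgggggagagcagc
In Wnt11 the ACGTG begins 61 bases and the reverse complement of CTTTGAT begins 51 bases before the start, and in Lef1 the CACGTG begins 79 bases before it.

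Genes of the wider pathway lists changed in KI kidneys in both directions. The counts by list, here and below, include the members: Wnt4, Wnt5a and Wnt9b are among the ligands called. Dkk2, Dkk3 and Sfrp1 are among the antagonists called. Over all genes, 31.6% were called higher and 29.3% lower in this comparison. Of 19 ligand genes, 15 passed the filter, and 7 were higher and 2 lower in KI than in Cre(-), with a median log2 fold change of 0.39 over the 15. Wnt9a rose by 2.74 ± 0.23 (adjusted p = 8.34e-08) and Wnt8b by 1.96 ± 0.58 (adjusted p = 0.00871), while Wnt5b, the ligand closest to Wnt5a, fell by 2.51 ± 0.19 on the log2 scale (adjusted p = 3.31e-08). Wnt7a was called higher from a level near 0, at a mean of 0.0209 TPM in Cre(-) against 1.46 TPM in KI. Porcn, the enzyme that attaches the lipid to Wnt proteins, fell by 1.02 ± 0.16 (adjusted p = 5.36e-05). Of 14 secreted antagonists, 11 passed the filter, 2 were higher (Dkk3 and Frzb) and 6 lower, with a median of -1.47. Sostdc1 fell by 2.23 ± 0.19 (adjusted p = 9.95e-08), Notum by 2.42 ± 0.30 (adjusted p = 4.9e-06) and Wif1 by 2.67 ± 0.57 (adjusted p = 0.000773), and Frzb rose by 1.49 ± 0.16 (adjusted p = 1.46e-06). None of these ligand, antagonist or Porcn calls reversed on the TPM scale.

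Receptors and target genes were split as well. Of 14 receptor and co-receptor genes tested, 6 were higher and 6 lower in KI, with Fzd6 at 2.93 ± 0.15 (adjusted p = 6.77e-10) and Fzd8 at 1.66 ± 0.13 (adjusted p = 3.94e-08) among the former and Ror2, a Wnt5a receptor, at -2.53 ± 0.25 (adjusted p = 4.69e-07) among the latter. The mean TPM of Lrp6 and Fzd4 moved opposite to their call. Of 15 target genes of beta-catenin, 7 were higher and 4 lower, with a median of 0.81. Nkd2 rose by 3.03 ± 0.38 (adjusted p = 5.98e-06), Ccnd1 by 2.18 ± 0.18 (adjusted p = 9.92e-08) and Tcf7 by 1.94 ± 0.33 (adjusted p = 0.000115), while Sp5 fell by 2.33 ± 0.24 (adjusted p = 6.54e-07), Notum fell as given above, and Znrf3 was called lower on the TMM scale with the opposite order of its mean TPM. Axin2, Lef1, Tcf7, Notum and Rnf43 stand in more than one list. Of the R-spondin and receptor turnover genes 2 of 10 were higher and 3 lower, of the destruction complex and transducers 5 of 12 were higher and 2 lower, with both lower calls (Csnk1a1 and Btrc) reversed in TPM, of the TCF/LEF factors and coactivators 3 of 8 were higher and 1 lower, and of the planar cell polarity genes 4 of 10 were higher and 3 lower, Prickle1 among them with the opposite order in TPM. Medians over all genes were 0.03.

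Fewer pathway genes were called between knockout groups and KI. In DKO, Wnt5b rose by 0.91 ± 0.19 (adjusted p = 0.00927), Sostdc1 by 1.07 ± 0.19 (adjusted p = 0.00436), Ror2 by 1.22 ± 0.26 (adjusted p = 0.0086), Nkd2 by 1.12 ± 0.35 (adjusted p = 0.0477) and Nkd1 by 0.81 ± 0.25 (adjusted p = 0.0475), Ptk7, a co-receptor of planar cell polarity, rose by 0.69 ± 0.15 (adjusted p = 0.0107), and Ccnd1 fell by 0.88 ± 0.20 (adjusted p = 0.0115). Sostdc1, an antagonist of Wnt and BMP signals, was the pathway gene besides Dkk3 and Fzd6 that was called in all 3 knockout comparisons, at 1.06 ± 0.18 in Hif1α KO (adjusted p = 0.00781) and 0.97 ± 0.19 in Hif2α KO (adjusted p = 0.0265). Fzd6 fell by 0.56 ± 0.14 in Hif1α KO, 0.63 ± 0.15 in Hif2α KO and 0.63 ± 0.15 in DKO, with adjusted p of 0.0292, 0.0489 and 0.0135. Wnt10a was called in Hif1α KO (1.24 ± 0.34, adjusted p = 0.0449). With 1 library left out at a time, the calls of Wnt5b, Sostdc1, Ror2 and Ptk7 in DKO and of Sostdc1 in Hif1α KO held in every case. Those of Nkd1 and Nkd2 in DKO were lost without KI replicate 2 or 3 or DKO replicate 2 or 3 (highest adjusted p = 0.178). That of Ccnd1 was lost without DKO replicate 2 or 3, and that of Wnt10a without any 1 of 6 libraries of the 7 compared (highest adjusted p = 0.144). The Fzd6 and Sostdc1 calls in Hif2α KO were each lost in 5 of 6 cases, with adjusted p up to 0.216, and Fzd6 was also lost in Hif1α KO and DKO without KI replicate 3, among 3 libraries each. Of the 15 target genes, 3 were higher and 1 lower in DKO, none was higher and 1 lower in Hif1α KO, and none was called in Hif2α KO. There Fzd6 and Sostdc1 were the 2 pathway genes called besides Dkk3. Over all genes 6.53% were called higher and 6.19% lower in DKO, 2.57% and 2.86% in Hif1α KO, and 0.741% and 0.647% in Hif2α KO. The counts of target genes therefore do not set the knockout groups apart.

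**Figure D4:**
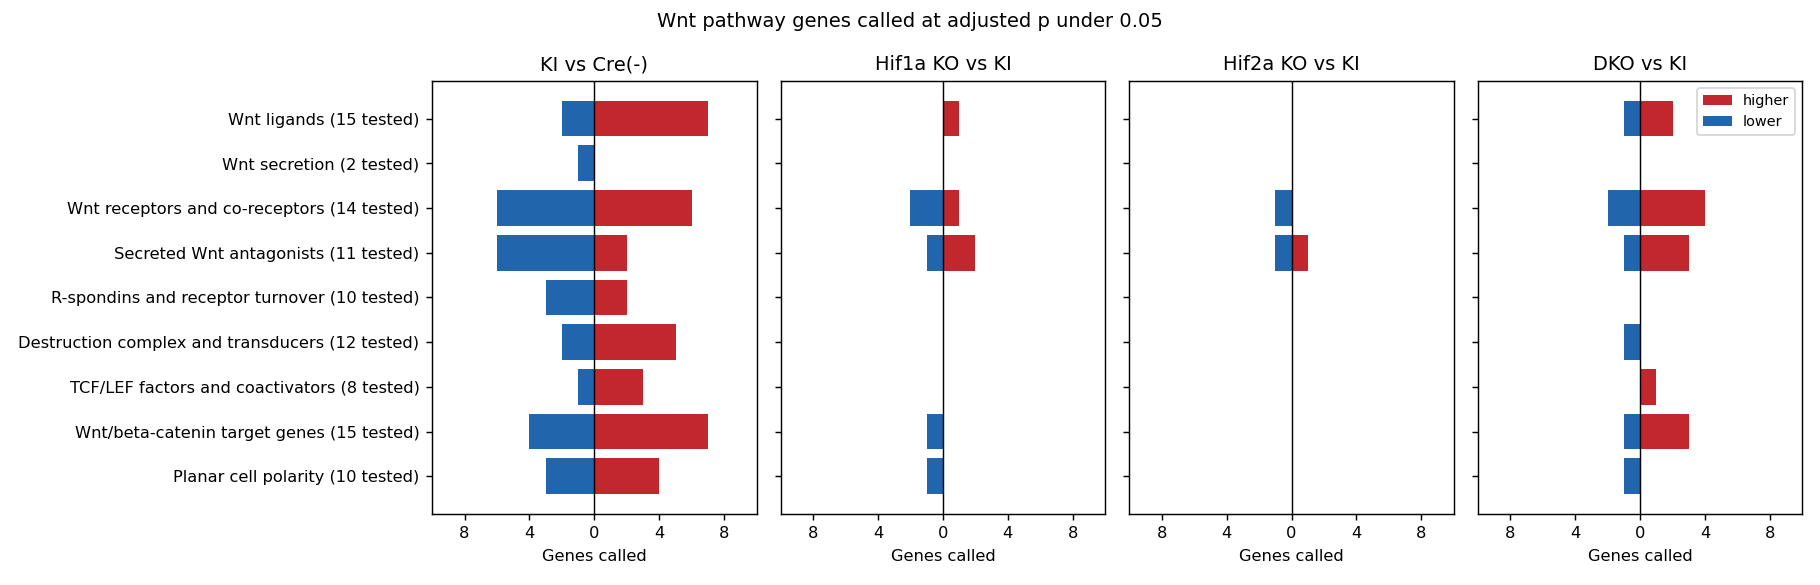
Number of genes called higher (right of 0) and lower (left of 0) at an adjusted p under 0.05 in 9 Wnt pathway lists, in 4 comparisons; the number of genes tested stands beside each list. Most calls are in KI relative to Cre(-), with 9 of 15 ligands and 8 of 11 antagonists, and Hif2α KO relative to KI has the fewest. The calls over all genes have the same order: 31.6% were higher and 29.3% lower in KI relative to Cre(-). In Hif2α KO relative to KI 0.741% were higher and 0.647% lower.

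Markers of kidney cell types moved with these groups, in whole-kidney RNA in which fewer cells of a type and less RNA per cell cannot be told apart. In KI relative to Cre(-), 7 of 8 principal cell markers of the collecting duct were lower and 1 higher. Over all genes 29.3% were called lower and 31.6% higher. The sum of the 8 was 585 to 694 CPM in the Cre(-) libraries, 369 to 453 CPM in KI and 520 to 672 CPM in DKO. The higher marker was Aqp3, at a mean of 63.1 TPM in Cre(-) and 209 TPM in KI, where the 8 summed to 385 TPM. These sums therefore lean on Aqp3 and need not follow the other 7 markers. In DKO relative to KI, 4 of the 8 principal cell markers rose and none fell, beside the rise of Wnt7b. Over all genes 6.53% were called higher and 6.19% lower in DKO relative to KI. The highest sum of DKO was in replicate 3, which held the highest Wnt7b and Wnt9b. The Hif2α KO sums were 419, 385 and 849 CPM, highest in replicate 3 as Wnt7b and Wnt9b of that group were. Replicate 2 had the lowest of these sums with a Wnt7b of 21.3 CPM, near the 22.9 CPM of replicate 3. In Hif1α KO the sums were 544, 436, 419 and 461 CPM, lowest in replicate 3, which held the highest Wnt7b of that group (21.5 CPM). Replicate 1 of Hif1α KO had the highest sum and the highest Wnt9b of that group (5.08 CPM). All 6 proximal tubule, 5 intercalated cell, 3 thick ascending limb, 3 distal convoluted tubule and 4 podocyte markers were lower in KI than in Cre(-), beside the decreases of Sfrp1, Dkk2 and Wnt9b. Proximal tubule markers summed to 9719 to 11490 CPM in Cre(-) and 675 to 781 CPM in KI. Of 6 fibroblast and mural cell markers, 5 were higher in KI, beside the rises of Wnt5a and Dkk3. The 6 summed to 216 to 283 CPM in Cre(-) and 540 to 561 CPM in KI. The knockout groups had higher sums than KI, at 613.4 to 762.5 CPM in Hif1α KO, 796.2 to 851.1 in Hif2α KO and 714.2 to 1063 in DKO. Dkk3 went the other way in each knockout group, below KI, and Wnt5a overlapped with KI. Also higher in KI than in Cre(-) were 3 macrophage markers of 4, all 4 B cell markers, 2 of 5 adipocyte markers and 1 of 5 T cell markers, while 2 of 4 endothelial markers were lower. In DKO relative to KI 3 fibroblast and mural cell markers, 3 thick ascending limb and 3 proximal tubule markers rose, and 1 of 5 T cell markers rose beside Lef1, which T cells express. T cell markers summed to 6.28 to 22.6 CPM in KI and 25.9 to 43.2 CPM in DKO. No marker was at 0 in every library of a group. The part of these cell types in the values of the 10 genes was not tested.

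For each member other than Dkk3, the 3 genes of 15054 (mean CPM of at least 1) with the highest Pearson correlation over the 13 Cre(+) libraries were listed, on log2 CPM, as a description over libraries that share genotype groups and depth. Wnt4 ran closest to Zxdc, Cdk20 and Bhlhe40, each at r = 0.97. Sfrp1 ran closest to Heph, Sema3d and Pcolce (r = 0.96), Wnt7b to Mal2 and Myo5b (r = 0.94) and Moxd1 (r = 0.93), and Wnt9b to Fam241a (r = 0.95), Atp8b1 (r = 0.93) and Fgfr2 (r = 0.92). Axin2 ran closest to Rflnb (r = 0.93), Tenm3 and Tiam1 (r = 0.92), and Dkk2 to Serpinh1 and 1110032F04Rik (r = 0.92) and Rnf122 (r = 0.91). Wnt11 ran closest to Nfib (r = 0.92), Slc34a2 (r = 0.89) and Bok (r = 0.87). The highest values were lowest for Wnt5a, at 0.88 (Tigar, Slc9a7 and Nup205), and Lef1, at 0.88 (Hnrnpr, followed by Ifnar2 and Cysltr1 at 0.87).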

How the data were processed

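Total RNA of whole mouse kidneys was made into TruSeq stranded mRNA libraries and sequenced. Per the labels and the methods, the authors trimmed reads with Trim Galore 0.6.6 and cutadapt 2.5, aligned them with STAR 2.7.9a and quantified transcripts with RSEM. The methods name the human build hg38 for alignment and hg38 or GRCm38 for the annotation, while the transcripts listed are mouse transcripts, so GRCm38 positions (GENCODE M21) are given here. The authors deposited expected counts per transcript, not normalized between libraries, and TPM per transcript, which is scaled by transcript length and library total. Of 119353 transcripts, 116770 (97.8%) matched GENCODE M21 and held at least 99.04% of the counts of each library. The remaining 2583 were left out. Expected counts were summed per gene and rounded, and TPM was summed.

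Genes were tested in edgeR 4.0.16 (R 4.3.3) by quasi-likelihood, after TMM and filterByExpr with a minimum count of 10. All 17 libraries entered 1 model, in which each group had its own coefficient. P-values were adjusted over the 17011 genes tested, with a threshold of 0.05, and SE is the log2 fold change divided by the root of F. In simulated data for KI against Cre(-), with 200 of 17011 genes changed, edgeR called 94% of 4-fold and 73% of 2-fold changes, with 6.2% of calls false, and DESeq2 made 22.4% false calls. Far fewer genes changed there than were called in the data, 31.6% higher and 29.3% lower. The counts were drawn with edgeR's own estimates of the spread. These rates therefore need not hold for the data, nor rank the 2 methods on them. Alternatives were DESeq2 1.42.0, its size factors in edgeR, no filter, 2-group fits, the replicate number as a block, limma 3.58.1 on log2(TPM + 1) and log2(TPM + 0.1), the 2 kinds of Cre(-) mice apart, and each library left out. The members and lists were chosen with earlier results of these data known. Named pathway genes are, for each list, direction and comparison, the 3 other genes with the largest called change and a mean of at least 0.5 TPM in either group. P-values of the main fit set a difference between groups against the spread between mice. That spread was estimated from all 17 libraries, including groups outside the comparison, and draws on other genes as well. Counting floors cover counting error only. Promoter sequences are from RefSeq (GRCm38.p6). Tables and figures were made with Python and matplotlib. The genes whose pattern was most like that of Dkk3 are not reported here.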

Additional observations from a re-analysis of the deposited data

How the results depend on the processing

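Of 698 alternative values for 49 pairs of a member and a comparison, 619 kept their direction and their side of the threshold, 45 lost the call, 14 gained it and 20 changed sign. These pairs are every member in KI against Cre(-) and in each knockout group against KI, with some chosen pairs of other comparisons. Pairs outside this choice are not counted, such as Wnt9b in Hif1α KO and Lef1 and Wnt11 in Hif2α KO, each against Cre(-), whose calls also changed. Each sign change was in a pair that had not passed: Wnt7b in KI against Cre(-) (0.05 on log2(TPM + 1), 0.07 on log2(TPM + 0.1), 0.01 against the Cre(-) mice with HIF1a f/f), Lef1 in KI against Cre(-) (-0.52 against the Cre(-) mice without flox alleles, -0.20 to 0.36 with 1 library left out), Wnt11 in Hif1α KO against KI (-0.01 with the replicate block, -0.05 and -0.11 on the TPM scales, -0.26 to 0.13 with 1 library left out), Dkk2 in Hif1α KO against KI (-0.38 to 0.07), Wnt5a in Hif2α KO against KI (0.02 on both TPM scales, -0.20 to 0.02) and in DKO against KI (-0.07 to 0.16), and Wnt9b in DKO against Cre(-) (-0.23 against the mice without flox alleles, -0.48 to 0.38). The cause was not tested. The count of members called in Hif2α KO against KI was 2 by DESeq2 and 0 with only the 2 groups or on log2(TPM + 0.1), against 1, and 0 to 2 with 1 library left out. It was 1 by DESeq2 between Hif1α KO and Hif2α KO, 1 by DESeq2 and 1 on log2(TPM + 1) between DKO and Hif1α KO (0 to 1 with 1 library left out), 1 to 2 for Hif1α KO against KI and 2 to 5 for DKO against KI, with fewer samples in each. Deviations of same-numbered samples from their group means had correlations from -0.22 to 0.25. With 3 or 4 samples per group, these cannot tell whether the numbers pair the mice. In DKO against Cre(-) all 3 samples correlated best with their own number, at 0.01 to 0.03. So did 2 of 3 in Hif1α KO against Hif2α KO, 2 of 4 in Hif1α KO against Cre(-), and 0 or 1 of 3 elsewhere. With the replicate block 6 members were called in KI against Cre(-) and 5 in DKO against KI. Over all genes, DESeq2 called 1664, 1015, 543, 383 and 18 genes in Hif1α KO against KI, Hif2α KO against KI, Hif1α KO against Hif2α KO, DKO against Hif1α KO and DKO against Hif2α KO, where edgeR called 925, 236, 73, 69 and 1. With only the 2 groups these were 246, 2, 132, 164 and 0, with DKO against KI at 1028 in place of 2164, with the block 479, 76, 19 and 13 for the first 4, and on log2(TPM + 0.1) 552, 83, 27 and 45 for the same 4. On log2(TPM + 1) Hif1α KO against Hif2α KO had 29. Counts of 14 to 85 per library limit Wnt11 and Lef1.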
